A study of Mus musculus with 20 samples.

Results

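The 10 genes described here, Supt5, Paf1, Mrps12, Sars2, Nfkbib, Hnrnpl, Ech1, Actn4, Eif3k and Lrfn3, are neighbours of Sirt2 within 2 Mb on mouse chromosome 7, and their liver mRNA was compared between wild-type and Sirt2 knockout mice to look for local effects of the knockout allele. They were taken by gene symbol from a table of 45306 genes. All 10 were found there and all 10 passed the filter on low counts. A 2 Mb window around the Sirt2 start holds 235 annotated genes, of which 119 had enough reads to be tested. The genes were chosen by position, with earlier results of these data known, and which measured values entered the choice is not stated. Lrfn3 stood out in those results between Sirt2-/- and Control mice, so that comparison is taken here as the one the choice used. For the 10 genes its values, and the averages over both treatments that contain them, are given as a description, without a test.

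Liver mRNA was sequenced in 20 libraries, in 4 groups of 5. Each is called a mouse here, but nothing in the labels says that the libraries came from separate animals, and p-values then measure only the spread between libraries, which may be technical. The Control group was wild type and kept at room temperature, and the CE group was wild type and exposed to cold, at 4 °C for 3 h per day over 3 weeks. The Sirt2-/- group carried the knockout allele at room temperature, and the Sirt2-/-/CE group carried the allele and had the same cold exposure. The mice were 5 weeks old at the start, and wild-type and knockout mice both had a C57BL/6 background. The allele was made by injecting Cas9 ribonucleoprotein against exons 5 to 7 of Sirt2 into fertilized eggs, so it was present in every tissue. How many founders it came from, and whether the wild-type mice were littermates, is not given in the sources used here. The libraries held 35499796 to 53917339 counts each.

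A knockout made in the germ line can change more than its target. A deletion can remove a promoter or an enhancer that a neighbour uses, and stretches of chromosome from the line in which the allele was bred stay linked to it as passengers. Genes that start back to back, with their starts a short distance apart on opposite strands, can share a promoter and are the neighbours for which a change at either gene is most often looked at. Several of these genes are basic cell machinery that nearly every liver cell makes. Mrps12 and Sars2 serve translation in mitochondria, Eif3k serves translation in the cytosol, Paf1 and Supt5 travel with RNA polymerase II, Hnrnpl binds pre-mRNA, and Ech1 takes part in fatty acid breakdown. Nfkbib holds NF-kappa B in the cytoplasm, Actn4 crosslinks actin filaments, and Lrfn3 is an adhesion protein best known from neurons.

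In genome build GRCm38 (mm10), Sirt2 spans 28766735 to 28788661 of chromosome 7 on the plus strand. Nfkbib, at 28758251 to 28767512 on the minus strand, is its nearest neighbour, and 42 of the 2169 exonic bases of Nfkbib lie opposite exonic bases of Sirt2. Sars2 (28741992 to 28753871, plus strand) and Mrps12 (28739641 to 28741820, minus strand) start 24.74 and 24.92 kb before Sirt2. Hnrnpl (28808541 to 28822266) and Ech1 (28825217 to 28832247) follow on the plus strand, 41.81 and 58.48 kb after the Sirt2 start. Actn4 (28893248 to 28962340) and Eif3k (28971372 to 28981864) lie on the minus strand and start 195.6 and 215.13 kb after it. Paf1 (28392951 to 28399388, plus strand) and Supt5 (28314891 to 28338746, minus strand) start 373.78 and 427.99 kb before it. Lrfn3 (30355489 to 30362772, minus strand) is the most distant, with its start 1596.04 kb away. All 10 are protein coding. Genes on the other strand also overlap exons of Hnrnpl, Actn4, Supt5 and Nfkbib, over 32 to 433 bases. Whether reads were assigned by strand is not given in the sources used here, and reads of such overlapping stretches cannot then be told apart.

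Both back-to-back pairs are shown because they are the neighbours whose start regions overlap. In the RefSeq promoter windows (GRCm38.p6, 250 bases before to 50 bases after a gene start, all 10 genes matched), the starts of Nfkbib and Sirt2 lie 107 bases apart on opposite strands, and their windows share 207 bases. The starts of Mrps12 and Sars2 lie 146 bases apart and their windows share 246 bases. The window of Sirt2, at chr7:28766502-28766801 on the plus strand, holds the shared stretch toward its right-hand end. Capitals mark matches to CCAAT and to the kappa B sequence GGGAATTCC, on either strand.
Sirt2: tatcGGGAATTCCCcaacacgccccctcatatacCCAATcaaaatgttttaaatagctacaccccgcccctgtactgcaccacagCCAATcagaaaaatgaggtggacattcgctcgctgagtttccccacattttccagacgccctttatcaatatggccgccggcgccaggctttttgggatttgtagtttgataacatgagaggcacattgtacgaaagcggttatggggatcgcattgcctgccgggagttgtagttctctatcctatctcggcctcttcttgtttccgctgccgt
The window of Sars2, at chr7:28741718-28742017 on the plus strand, is shown for the Mrps12 pair. Capitals mark CCAAT and CCGGAAG, an ETS-type sequence, on either strand.
Sars2: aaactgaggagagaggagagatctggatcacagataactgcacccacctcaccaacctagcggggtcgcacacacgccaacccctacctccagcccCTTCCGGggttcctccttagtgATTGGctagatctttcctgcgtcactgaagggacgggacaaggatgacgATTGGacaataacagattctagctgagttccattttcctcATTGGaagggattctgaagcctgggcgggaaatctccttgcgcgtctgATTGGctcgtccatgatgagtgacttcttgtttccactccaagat
The window of Lrfn3, the neighbour whose level differed most between mice, is at chr7:30362723-30363022 and is written in the direction of the gene, on the minus strand. Capitals mark CG pairs.
Lrfn3: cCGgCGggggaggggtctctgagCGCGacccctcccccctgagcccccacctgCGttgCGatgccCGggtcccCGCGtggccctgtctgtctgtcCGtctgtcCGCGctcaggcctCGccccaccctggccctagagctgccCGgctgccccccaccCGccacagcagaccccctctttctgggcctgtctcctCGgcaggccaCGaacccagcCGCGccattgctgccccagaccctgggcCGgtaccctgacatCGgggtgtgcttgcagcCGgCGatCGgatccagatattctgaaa

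Most of these start regions were of the CpG-rich kind that broadly used genes tend to have. The ratio of observed to expected CG pairs was 0.54 to 1.03 over the 10 windows, with a median of 0.815, against a median of 0.38 over all 32841 RefSeq windows. It was at least 0.6 in 9 of the 10, against 35.8% of all windows, and Sars2 was the exception. A GC box, GGGCGG on either strand, was found in 7 of the 10 windows against 35.7% of all windows, and CCAAT in 5 against 37.4%. TATAAA was found in 0 of the 10, against 13.6% of all windows. The matches of Sars2 and Mrps12 are partly the same bases, since their windows overlap. CCGGAAG was found in 2 windows against 8.86% of all, the YY1 sequence CAAGATGG in 2 against 2.12%, and the NRF1 sequence GCGCATGCG in 1, Eif3k, against 1.75%. The E-box CACGTG, the sequence that clock factors bind, was found in the window of Eif3k alone, against 7.15% of all windows. The kappa B sequence was found in 0 of the 10 windows, although it stands in the window of Sirt2 and in 0.225% of all windows. The Lrfn3 window held none of the 8 sequences searched. These are matches of letters in a fixed window and say nothing of which factors were bound.

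The neighbours covered a wide range of liver levels. In FPKM, a level corrected for gene length and depth that the authors computed, the mean over 20 mice was 211 for Ech1, 48.8 for Eif3k, 36.9 for Mrps12, 34.1 for Actn4 and 23.1 for Hnrnpl. It was 15.7 for Supt5, 14.2 for Nfkbib, 12.3 for Paf1, 4.61 for Sars2 and 2.2 for Lrfn3, with Sirt2 itself at 17. Ech1 was above 98.0% of all genes tested and Lrfn3 above 45.4%. Lrfn3 varied most from mouse to mouse, from 0.301 to 5.49 FPKM, with a coefficient of variation of 61.0%. For the other 9 this coefficient was between 15.3% and 30.1%. All further levels are CPM, counts scaled to a fixed library size and corrected for composition between libraries, and all fold changes are on the log2 scale from edgeR.

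The targeted gene was lower in every knockout library. Sirt2 stood at 41.3 to 44.5 CPM in Control mice and 40.2 to 56.2 CPM in CE mice, against 16.9 to 27.5 CPM in Sirt2-/- mice and 19 to 27.5 CPM in Sirt2-/-/CE mice. The wild-type and knockout ranges did not overlap. Over both treatments the log2 fold change of Sirt2 was -1.03 with a standard error (SE) of 0.10, and edgeR's quasi-likelihood test gave a Benjamini-Hochberg adjusted p of 5.75e-05. Reads over Sirt2 remained at 0.490 of the wild-type level, and the table, which has a single count per gene, does not show on which exons they fell. For the protein, the paper reports that liver immunoblots found no Sirt2 in Sirt2-/- mice.

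**Figure D1:**
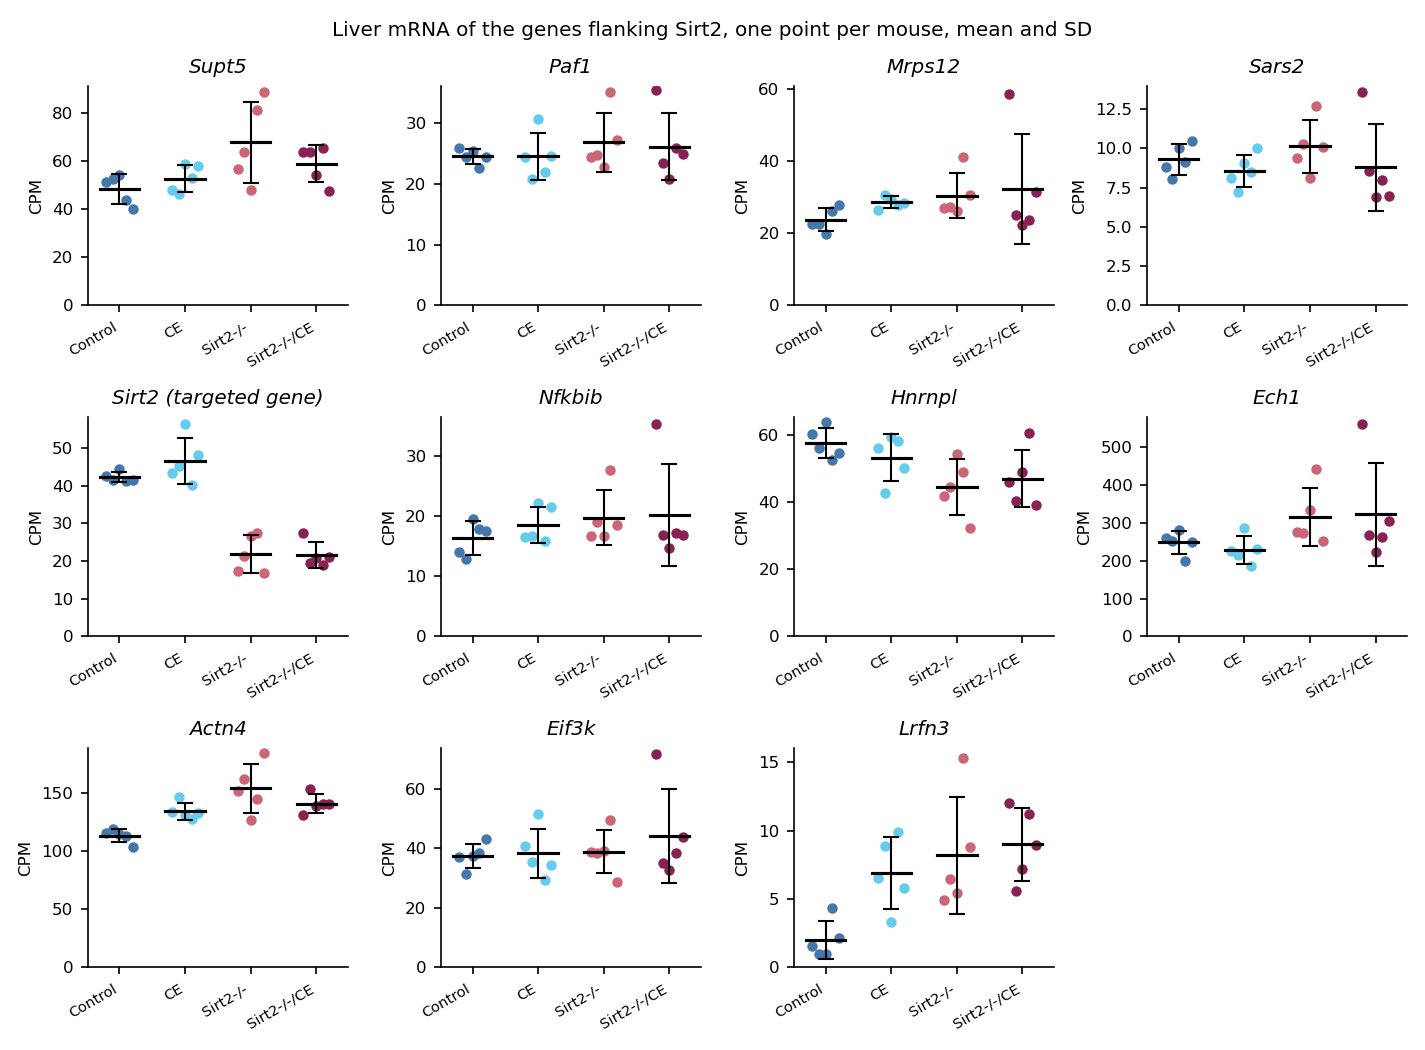
CPM of the 10 neighbours and of Sirt2 in each mouse, in order of position along chromosome 7, with group mean (line) and SD (bars, n = 5 mice a group). Sirt2 falls into separate wild-type and knockout ranges, Lrfn3 is lowest in Control mice, and a Sirt2-/-/CE mouse stands above the rest in several panels (561 CPM of Ech1).

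Against that drop in Sirt2, no neighbour passed the test between the cold-exposed genotypes. Of the 10 genes, 9 were higher and 1 was lower in Sirt2-/-/CE than in CE mice, and 0 passed an adjusted p of 0.05 with edgeR, where 0.0128% of all 15616 genes tested did. At an unadjusted p of 0.05 the count was 1 of 10, against 6.09% of all genes. With DESeq2 and with limma voom the adjusted count was also 0, where 0.199% and 0.0128% of all genes passed. The median log2 difference of the 10 was 0.14, against 0.02 for all genes tested, and it was -0.04 when Sirt2-/-/CE replicate 16 was left out, with 4 genes then higher and 6 lower. These libraries are other than those of the comparison taken as the basis of the choice. That no value of the cold-exposed mice entered the choice is an assumption.

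In unexposed mice, where the values are a description, the neighbours spread further apart. Of the 10, 9 had a higher mean in Sirt2-/- than in Control mice, with a median log2 difference of 0.31 against 0.02 for all genes tested. The differences ran from -0.37 for Hnrnpl to 2.03 for Lrfn3. Without Sirt2-/- replicate 14, 8 were higher and the median was 0.15. With a per-mouse score of circadian clock genes as a covariate, 9 were higher and the median was 0.24. Averaged over both treatments, 9 of the 10 had a higher mean in knockout mice, by a median of 0.23. Without Sirt2-/-/CE replicate 16 that median was 0.07, with 8 higher.

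With cold, no neighbour passed the edgeR test in either genotype. In wild-type mice, 6 were higher and 4 were lower in CE than in Control mice, and 0 passed an adjusted p of 0.05 with edgeR, where 0.0064% of all genes did. At an unadjusted p of 0.05 the count was 2, Lrfn3 and Actn4, against 10.7% of all genes. With DESeq2 and with limma voom, 1 of the 10, Lrfn3, passed, where 1.20% and 3.46% of all genes did. Between the knockout groups, 6 were higher and 4 were lower in Sirt2-/-/CE than in Sirt2-/- mice, and 0 passed with edgeR, DESeq2 or limma voom, where 0% of all genes passed with edgeR, 0.0448% with DESeq2 and 0% with limma voom. At an unadjusted p of 0.05 that count was also 0, against 7.25% of all genes. The CE and Sirt2-/- comparisons share the Control mice, and the Sirt2-/-/CE mice enter both of the others, so values in these comparisons are not independent.

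**Figure D2:**
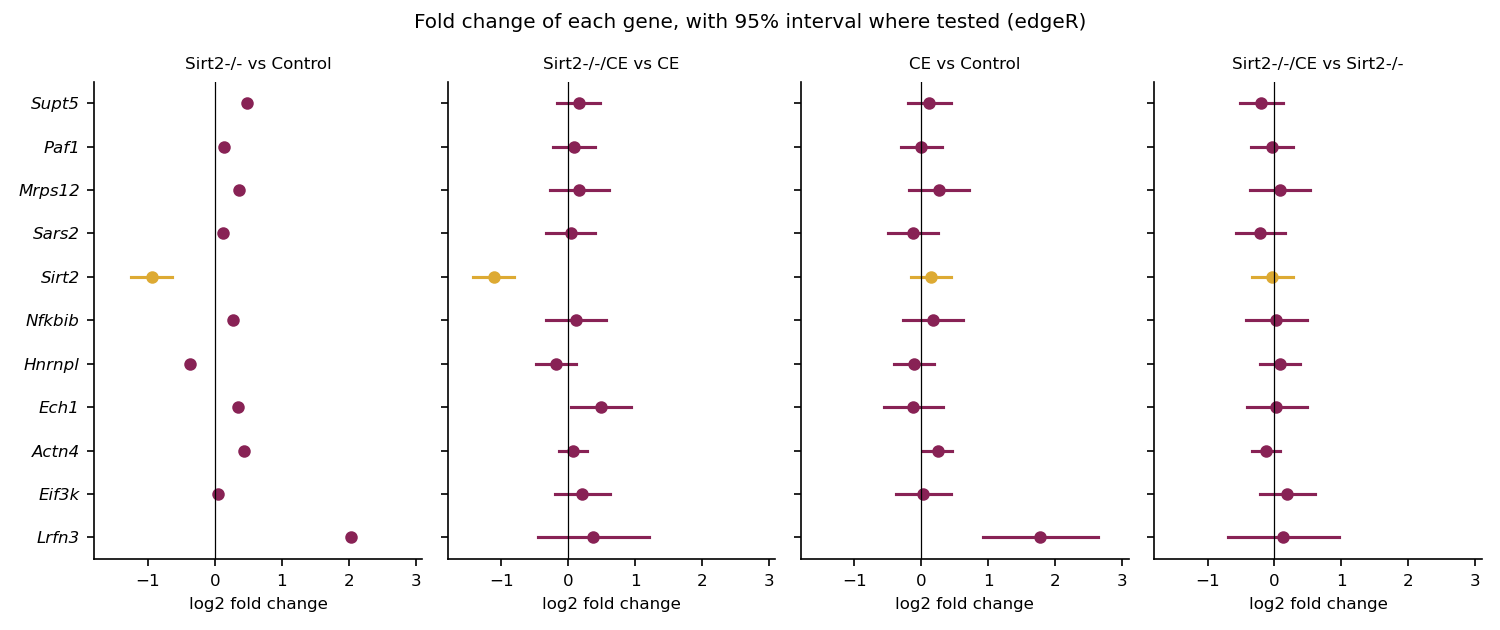
Log2 fold change (horizontal axis) of each neighbour and of Sirt2 in 4 comparisons, genes in order of position. Bars are 95% intervals from edgeR, left out for the neighbours in Sirt2-/- against Control, where values are a description. Sirt2 lies below 0 in both genotype comparisons, and Lrfn3 has wide intervals, 0.92 to 2.64 in CE against Control.

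Nfkbib, the neighbour that shares its start region with Sirt2, overlapped between the genotypes in both treatments and did not pass the test in the cold. It stood at 14.1, 12.9, 19.6, 17.9 and 17.6 CPM in Control mice and at 16.8, 19.1, 16.7, 27.8 and 18.5 CPM in Sirt2-/- mice. The ranges overlapped and the highest value came from Sirt2-/- replicate 14. In the cold it stood at 16.5, 16.8, 22.2, 15.9 and 21.6 CPM in CE mice and at 35.4, 16.9, 14.8, 17.3 and 16.9 CPM in Sirt2-/-/CE mice. Here 4 of the 5 knockout mice lay within or below the CE range, and replicate 16 stood far above. The log2 fold change in the cold was 0.12 with a 95% interval of -0.33 to 0.57 (edgeR, adjusted p = 0.971), and it was -0.18 without replicate 16. In unexposed mice the difference was 0.27 with an SE of 0.22.

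The ratio of Nfkbib to Sirt2 within each mouse sets both genes of that start region side by side. It was 0.388 ± 0.0623 (SD, n = 5) in Control and 0.398 ± 0.0306 in CE mice, against 0.918 ± 0.178 in Sirt2-/- and 0.915 ± 0.223 in Sirt2-/-/CE mice. The highest ratio in a wild-type mouse was 0.45 and the lowest in a knockout mouse was 0.627. Sirt2 fell to a fold of 0.519 in unexposed and 0.463 in cold-exposed mice, and the mean of Nfkbib was 1.20 and 1.09 times as high. The divisor is the targeted gene, so its drop alone would raise the ratio. The ranges of Nfkbib itself overlapped between the genotypes, and nothing is read from the ratio about Nfkbib.

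Sars2, the mitochondrial seryl-tRNA synthetase, and Mrps12, a protein of the small mitochondrial ribosomal subunit, are the other pair that starts back to back. Sars2 stood at 8.06 to 10.5 CPM in Control, 7.20 to 10 in CE, 8.15 to 12.7 in Sirt2-/- and 6.91 to 13.6 in Sirt2-/-/CE mice, so all 4 ranges overlapped. Its log2 difference between the cold-exposed genotypes was 0.04, with a 95% interval of -0.33 to 0.41 (edgeR, adjusted p = 0.987). Leaving out replicate 16 turned it to -0.18. Mrps12 stood at 22.5, 22.7, 19.7, 26.2 and 27.7 CPM in Control and at 26.5, 30.7, 29.6, 27.9 and 28.4 CPM in CE mice. All 5 CE mice were above the Control mean, but the ranges overlapped and the log2 difference of 0.27 did not pass (SE 0.21, edgeR, adjusted p = 0.717). In knockout mice Mrps12 reached 26.1 to 41.1 CPM without cold and 22.2 to 58.7 CPM with it. Between the cold-exposed genotypes the difference was 0.17 (-0.27 to 0.61, edgeR, adjusted p = 0.967) and turned to -0.17 without replicate 16. Per mouse, Mrps12 was 2.57 ± 0.361 times Sars2 in Control, 3.39 ± 0.526 in CE, 2.99 ± 0.249 in Sirt2-/- and 3.59 ± 0.763 in Sirt2-/-/CE mice (SD, n = 5). The highest Control ratio, 2.87, was below the lowest Sirt2-/-/CE ratio, 2.93, and all other pairs of groups overlapped.

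Ech1, a peroxisomal and mitochondrial isomerase that moves double bonds during the oxidation of unsaturated fatty acids, had the lowest unadjusted p of the 10 in the cold. It stood at 227, 215, 286, 185 and 232 CPM in CE mice and at 561, 267, 222, 262 and 305 CPM in Sirt2-/-/CE mice. Of the 5 knockout mice, 4 were above the CE mean of 229 CPM, and the ranges overlapped. The log2 difference was 0.50 with a 95% interval of 0.05 to 0.94 and an unadjusted p of 0.0314, which did not pass after adjustment (edgeR, adjusted p = 0.737). Without replicate 16 it was 0.20. In unexposed mice Ech1 stood at 260, 253, 282, 200 and 249 CPM in Control and at 277, 273, 335, 442 and 252 CPM in Sirt2-/- mice, a log2 difference of 0.34 with an SE of 0.21. All 5 Sirt2-/- mice were above the Control mean, and 3 of them within the Control range.

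Hnrnpl, an RNA-binding protein that regulates splicing, was the only neighbour with a lower mean in knockout mice in both treatments. It stood at 60.3, 56.1, 63.8, 52.6 and 54.8 CPM in Control and at 41.9, 44.4, 54.5, 49.1 and 32.3 CPM in Sirt2-/- mice. A single Sirt2-/- mouse reached into the Control range, and the log2 difference was -0.37 with an SE of 0.15. In the cold it stood at 56.0, 42.6, 59.5, 58.1 and 50.1 CPM in CE and at 46.0, 40.5, 49.0, 60.5 and 39.1 CPM in Sirt2-/-/CE mice. These ranges overlapped widely and the difference of -0.18 did not pass (-0.48 to 0.12, edgeR, adjusted p = 0.935). Averaged over both treatments the difference was -0.28 with an SE of 0.10.

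Paf1 and Supt5 act on elongating RNA polymerase II, Paf1 as a scaffold of the complex named after it and Supt5 as the large subunit of DSIF. Paf1 was at 24.5 ± 1.27 CPM in Control, 24.5 ± 3.84 in CE, 26.8 ± 4.84 in Sirt2-/- and 26.0 ± 5.5 in Sirt2-/-/CE mice (SD, n = 5), so its group means differed by less than the spread within the knockout groups. Its difference in the cold was 0.09 (-0.22 to 0.40, edgeR, adjusted p = 0.971). Supt5 stood at 51.4, 52.8, 54.4, 43.8 and 40.3 CPM in Control and at 57, 63.8, 48.2, 81.3 and 88.9 CPM in Sirt2-/- mice. Of the Sirt2-/- mice, 4 were above every Control mouse and the log2 difference was 0.48 with an SE of 0.15. Between the cold-exposed genotypes Supt5 differed by 0.16 (-0.16 to 0.48, edgeR, adjusted p = 0.944), at 52.8 ± 5.64 CPM in CE and 59.0 ± 7.68 CPM in Sirt2-/-/CE mice. Eif3k, a small subunit of the translation initiation factor eIF3, was at 37.4 ± 4.08 CPM in Control and 38.8 ± 7.30 CPM in Sirt2-/- mice, and at 38.3 ± 8.35 CPM in CE and 44.3 ± 15.7 CPM in Sirt2-/-/CE mice. Its difference in the cold, 0.21 (-0.20 to 0.62, edgeR, adjusted p = 0.941), was -0.03 without replicate 16.

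Actn4, an actin-crosslinking protein found at cell junctions and in moving cells, was lowest in Control mice. It stood at 116, 119, 115, 113 and 104 CPM in Control, at 134, 147, 131, 128 and 133 CPM in CE, at 152, 162, 127, 145 and 185 CPM in Sirt2-/- and at 131, 154, 139, 141 and 141 CPM in Sirt2-/-/CE mice. Every CE mouse was above every Control mouse, as for 3.04% of all genes whose groups did not overlap in either direction. The difference with cold in wild-type mice, 0.25 with an SE of 0.10, did not pass after adjustment (edgeR, adjusted p = 0.384). With DESeq2 the adjusted p was 0.193 and with limma voom 0.082. Between Sirt2-/- and Control mice the difference was 0.44 (SE 0.10). Their ranges did not overlap either, as for 3.61% of all genes, which is given as a description. Between the cold-exposed genotypes Actn4 differed by 0.07, with a 95% interval of -0.14 to 0.28 (edgeR, adjusted p = 0.971), which bounds a difference at a fold of 1.21.

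Markers of other liver cell types are listed beside Actn4 because whole liver was sequenced, where more cells of a type and more RNA per cell cannot be told apart. The summed level of the 4 Kupffer cell markers in the table, of 5 listed, was 76.1 to 264 CPM in Control, 77.6 to 298 in CE, 165 to 300 in Sirt2-/- and 209 to 352 in Sirt2-/-/CE mice. The 4 endothelial markers summed to 44.7 to 198 CPM in Control, 28.0 to 135 in CE, 71.7 to 192 in Sirt2-/- and 150 to 211 in Sirt2-/-/CE mice. The 4 stellate cell markers summed to 35.9 to 90.3, 14 to 68.4, 37.8 to 107 and 63.2 to 98.9 CPM in the same order, and the 4 cholangiocyte markers to 3.39 to 6.44, 2.99 to 7.80, 3.34 to 5.90 and 3.0 to 5.22 CPM. In the order Control, CE, Sirt2-/- and Sirt2-/-/CE, the Kupffer cell medians were 168, 119, 229 and 289 CPM. The endothelial medians were 132, 78.5, 153 and 193 CPM. Stellate cell medians were 72.8, 45.8, 50.2 and 71.3 CPM, and cholangiocyte medians were 4.76, 3.9, 4.33 and 4.06 CPM. In all 4 groups hepatocyte markers dominated, at a summed 76400 to 168000 CPM over the 6 genes. No marker of these lists was at 0 in all mice. The part of these cell types in the level of Actn4 was not tested.

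Lrfn3, a leucine-rich repeat and fibronectin domain protein of the synaptic adhesion family, had the largest differences of the 10 from Control mice, both in CE and in Sirt2-/- mice. It stood at 1.54, 0.972, 0.987, 4.38 and 2.15 CPM in Control mice and at 4.93, 6.44, 5.44, 15.3 and 8.82 CPM in Sirt2-/- mice. All Sirt2-/- mice were above all Control mice, and the highest Control value, in replicate 4, came close to the lowest knockout value. In that comparison 3.61% of all genes did not overlap, and nothing is read from it for Lrfn3. These levels rest on 40 to 212 counts a library in Control and 199 to 611 in Sirt2-/- mice. The log2 difference was 2.03 with an SE of 0.42, a fold of 4.07.

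Lrfn3 was also high in wild-type mice after cold. The CE mice stood at 6.57, 8.88, 3.31, 9.92 and 5.83 CPM, 4 of them above every Control mouse. The log2 difference from Control was 1.78 with a 95% interval of 0.92 to 2.64, and did not pass after adjustment with edgeR (adjusted p = 0.157). It passed with DESeq2 (1.79, adjusted p = 0.00476), with limma voom (2.22, adjusted p = 0.00457) and with edgeR when Control replicate 4 was left out (2.29, adjusted p = 0.0133). Lrfn3 is taken as picked on its difference from these same Control mice, so these p-values carry that selection and are not independent evidence.

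Between the cold-exposed genotypes Lrfn3 did not pass the test. The Sirt2-/-/CE mice stood at 12, 5.62, 7.20, 11.2 and 8.97 CPM, and overlapped the CE mice. The log2 difference was 0.38 with a 95% interval of -0.45 to 1.21 (edgeR, adjusted p = 0.952), so that a fold of up to 2.31 in this comparison could not be told from none. The difference between the cold effects in knockout and wild-type mice was -1.65 with an SE of 0.57, and it includes the comparison taken as the basis of the choice. The order of the group means was Sirt2-/-/CE, Sirt2-/-, CE and Control. The upper 3 overlapped, and CE also overlapped Control, with 3.31 CPM in CE replicate 8 and 4.38 CPM in Control replicate 4.

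The level of Lrfn3 tended to be higher in mice in which a score of circadian clock genes was low, with exceptions, and this was not tested. A clock score was computed for each mouse as the mean centred log2 CPM of Ciart, Dbp, Nr1d2, Per3 and Tef less that of Arntl, Clock and Npas2, genes whose peaks fall at opposite times of day. It was 1.33 to 3.36 in Control, -4.52 to 2.42 in CE, -6.48 to 2.17 in Sirt2-/- and -4.69 to 0.87 in Sirt2-/-/CE mice. The Control mouse with the lowest score, replicate 4 at 1.33, had the highest Lrfn3 of its group, and the CE mouse with the highest score, replicate 8 at 2.42, had the lowest Lrfn3 of its group. The order was not kept throughout: Sirt2-/- replicate 15, with the lowest score of all at -6.48, had 8.82 CPM against 15.3 in replicate 14 at -5.72, and Sirt2-/-/CE replicate 16 at -0.10 had 12 CPM against 11.2 in replicate 19 at -4.69. With the score in the fit, the difference of Lrfn3 fell from 2.03 to 1.27 between Sirt2-/- and Control mice. Between CE and Control mice it fell from 1.78 to 1.28. The latter did not pass with the score (edgeR, adjusted p = 0.227) or without it (edgeR, adjusted p = 0.157). The difference of Actn4 between Sirt2-/- and Control mice went from 0.44 to 0.38 with the score. The time of day at which livers were taken is not given in the sources used here. Clock phase and group cannot be fully told apart in these mice.

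**Figure D3:**
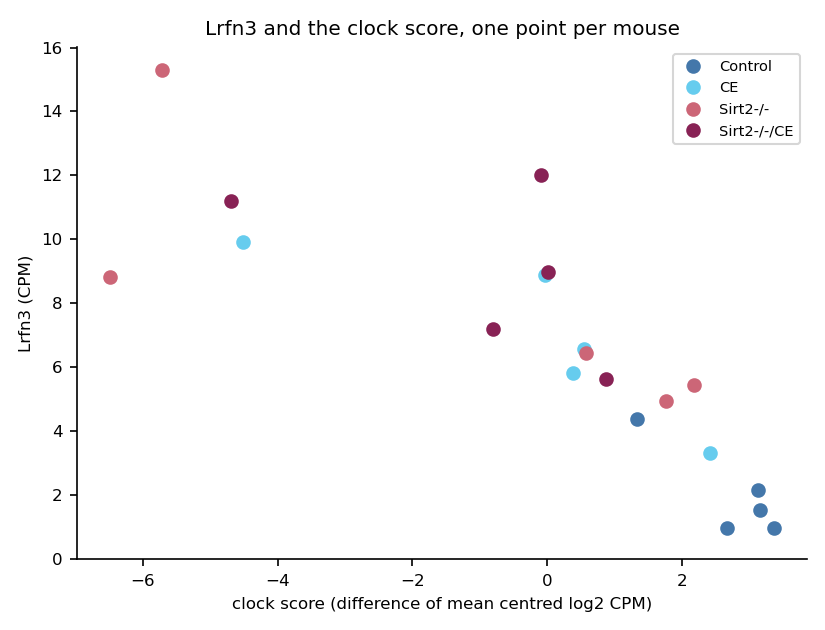
Lrfn3 in CPM (vertical axis) against the clock score (horizontal axis), 1 point per mouse, coloured by group. Control mice lie at the lower right, with scores of 1.33 to 3.36, and mice of the other groups with low scores lie higher.

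Among the 10591 genes that averaged 1 FPKM or more, those whose log2 CPM followed Lrfn3 most closely over the 20 libraries were Leo1 on chromosome 9 (Pearson correlation 0.91), Arntl on chromosome 7 (0.91) and Pnkd on chromosome 1 (0.90). These are descriptions over libraries that share their groups. Arntl encodes BMAL1, a core activator of the clock, and is not among the genes of the 2 Mb window. Its means were 1.05 CPM in Control, 8.75 in CE, 10 in Sirt2-/- and 8.42 in Sirt2-/-/CE mice, with the low level in Control mice, as for Lrfn3. Leo1, a subunit of the complex that Paf1 scaffolds, was at 8.25, 15.5, 14.9 and 16.6 CPM in the same order, while Paf1 itself stayed between 24.5 and 26.8 CPM.

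Over the wider region, none of the other genes near Sirt2 passed the threshold with edgeR. Within 2 Mb, 108 genes were tested besides the 10 and Sirt2. Of these, 0 passed an adjusted p of 0.05 with edgeR between Sirt2-/-/CE and CE mice, between Sirt2-/- and Control mice or over both treatments, where 0.0128%, 0.89% and 0.186% of all genes did. At an unadjusted p of 0.05 the counts were 2 (1.85%), 12 (11.1%) and 10 (9.26%), against 6.09%, 14.9% and 13.8% of all genes tested. Within 1 Mb (35 genes) and within 5 Mb (172 genes) the adjusted counts were 0 as well. With DESeq2 the counts within 2 Mb were 1 and 2 in the first and the second of these comparisons, against 0.199% and 3.89% of all genes. With limma voom they were 6 in the second, against 5.80% of all genes, and 1 over both treatments, against 1.68%. The 10 were set aside with results known. Counts over the rest thus cannot speak for the whole region in Sirt2-/- against Control mice or over both treatments.

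The median absolute log2 difference between Sirt2-/- and Control mice was 0.31 over the 12 genes within 250 kb, 7 of them described above. It was 0.23 over 32 genes from 250 kb to 1 Mb, 0.29 over 74 genes from 1 to 2 Mb, 0.31 over 64 genes from 2 to 5 Mb and 0.26 over all 15615 genes other than Sirt2. Between the cold-exposed genotypes these medians were 0.18, 0.25, 0.20, 0.15 and 0.19, and over both treatments 0.23, 0.24, 0.17, 0.16 and 0.18. The signed medians within 250 kb were 0.11 in unexposed mice, 0.11 in the cold and 0.14 over both treatments, against 0.02 for all genes in each, with 66.7%, 75.0% and 75.0% of the 12 genes higher, against 51.8%, 52.6% and 53.6%. Of these 12, 7 were chosen with results known, so this is a description. Lrfn3, the member nearest the 2 Mb limit, is followed outside it by Cd22, at 2113.61 kb, with 0.31 between Sirt2-/- and Control mice and 0.75 in the cold. Before Sirt2 the first tested gene outside the limit is Cyp2a4, at -2459.57 kb, with -0.96 and 2.85.

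**Figure D4:**
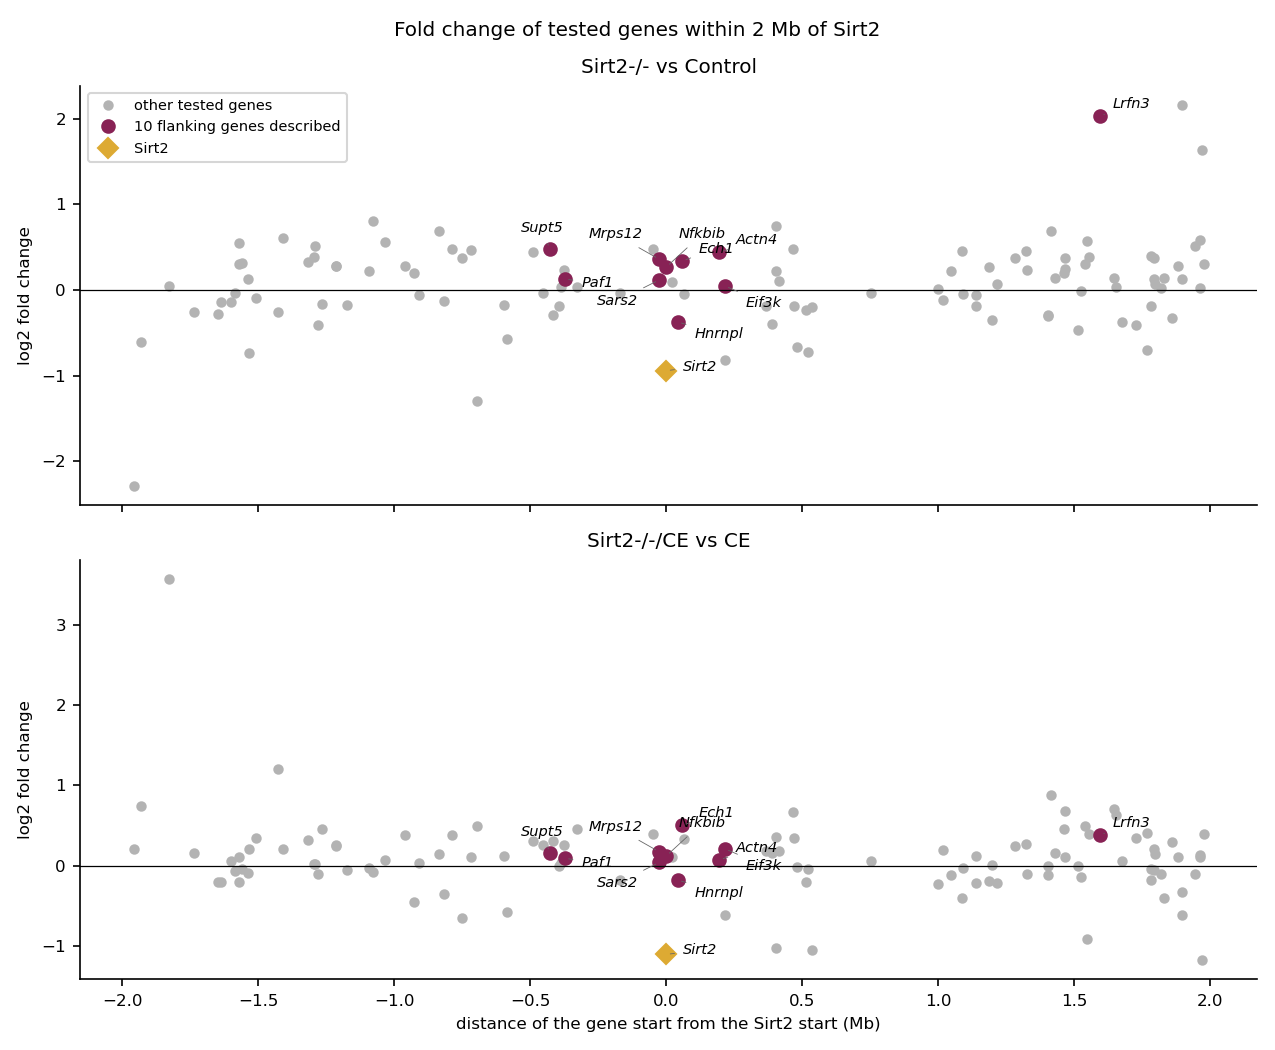
Log2 fold change (vertical axis) of the 119 tested genes that start within 2 Mb of the Sirt2 start, against distance in Mb, for Sirt2-/- against Control (top) and Sirt2-/-/CE against CE (bottom). Sirt2 lies at -0.94 and -1.11, the 9 described genes other than Lrfn3 lie between -0.37 and 0.50, and Lrfn3 lies at 2.03 in the upper panel and 0.38 in the lower.

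A single mouse carried much of the spread among the neighbours. Sirt2-/-/CE replicate 16 had the highest level of all 20 mice for 6 of the 10 genes, Nfkbib, Sars2, Mrps12, Ech1, Eif3k and Paf1, while 16.1% of all genes tested were highest in that mouse. For Ech1 it reached 561 CPM, with 442 in the next of all mice. Mrps12 reached 58.7 CPM with 41.1 next. Hnrnpl, Actn4, Supt5 and Lrfn3 were highest in other mice. Sirt2-/- replicates 14 and 15 were highest for 1 and 2 of the 10. Replicate 16 also had the highest summed Kupffer cell and endothelial markers of the 20 mice, at 352 and 211 CPM, and the part of those cells in its values was not tested.

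**Figure D5:**
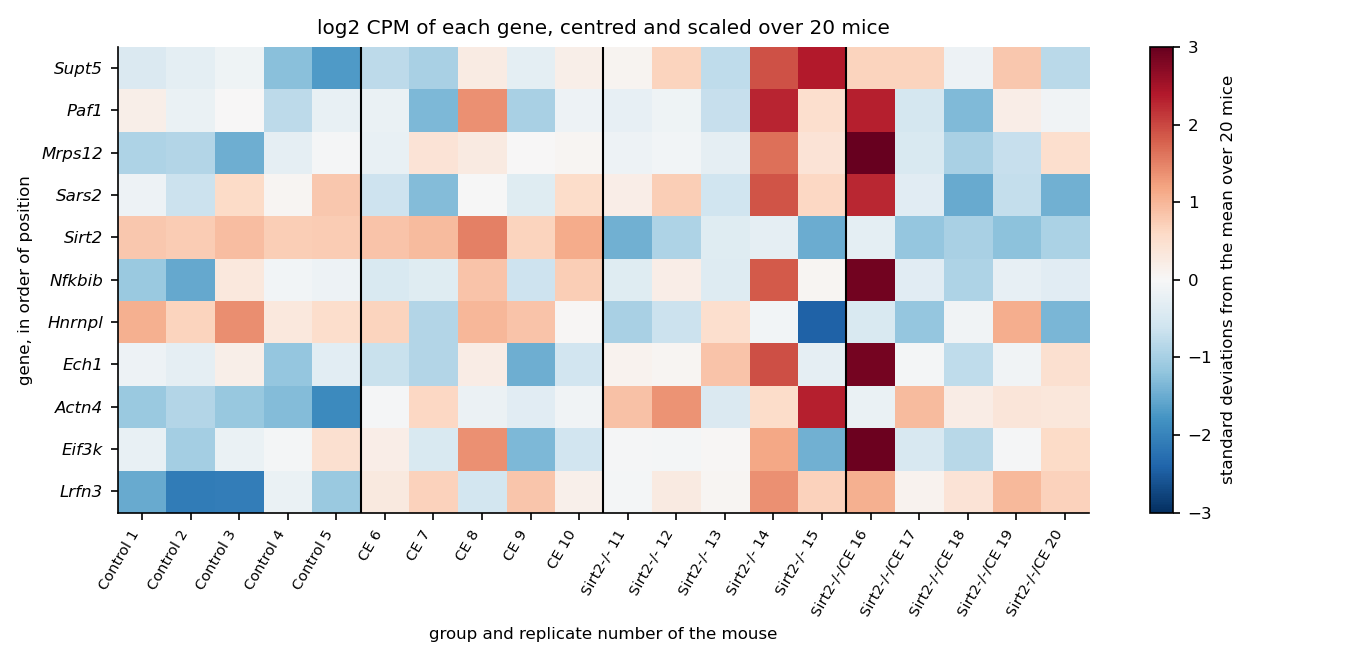
Log2 CPM of each neighbour and Sirt2 (rows, by position) in each of 20 mice (columns, group and replicate number), as standard deviations from the gene's mean over 20 mice. Sirt2-/-/CE replicate 16 is dark red for Nfkbib, Mrps12, Ech1 and Eif3k, and Control replicates 2 and 3 are dark blue for Lrfn3.

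The partners of these proteins, encoded elsewhere, were looked at as whole lists. Of 107 genes listed as subunits of the same complexes or members of the same families, 101 were tested, and 0 passed an adjusted p of 0.05 with edgeR in any of the comparisons. Between Sirt2-/-/CE and CE mice 73 were higher and 28 lower, where 52.6% of all genes were higher, with 4 at an unadjusted p of 0.05, against 6.09% of all genes. Of the 101, 39 were highest in replicate 16. Between Sirt2-/- and Control mice 55 were higher and 46 lower, with 20 at an unadjusted p of 0.05, against 51.7% higher and 14.9% of all genes. In CE against Control mice 40 were higher and 61 lower, with 7 at that level against 10.7% of all genes, and between the knockout groups 50 were higher and 51 lower, with 12 against 7.25%. The lists are given for the cold-exposed genotypes first. The 31 proteins of the small mitochondrial ribosomal subunit besides Mrps12 were all higher in mean, by a median of 0.20 against 0.17 for Mrps12, and 23 of the 31 were highest in replicate 16. In unexposed knockout mice 13 of the 31 were higher and 18 lower, by a median of -0.05. The 16 other mitochondrial aminoacyl-tRNA synthetases had a median of 0.10 against 0.04 for Sars2. The 12 other eIF3 subunits had a median of 0.06 against 0.21 for Eif3k, with 8 of the 12 highest in replicate 16. The 19 other hnRNP genes had a median of -0.10, with 14 lower, against -0.18 for Hnrnpl, and in unexposed knockout mice 12 were higher and 7 lower. The 4 tested genes of unsaturated fatty acid oxidation had a median of 0.33, all higher, against 0.50 for Ech1, and all 4 were lower in unexposed knockout mice, by a median of -0.07. The 7 other I kappa B genes had a median of 0.09, the 5 genes of the PAF1 complex -0.03 and the 5 of DSIF and NELF 0.01. A single other actinin and a single other gene of the Lrfn family were tested, at 0.16 and -0.15.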

How the data were processed

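Polyadenylated liver RNA from 20 mice was sequenced, and the authors deposited a table of counts and FPKM values per gene. Counts are reads assigned to a gene, not normalized, and the deposited FPKM values are the authors' own. The labels name mm10, and the aligner, the counter and the strand setting are not given in the sources used here. Of the lines, 9 named no gene and were left out, and 0 columns belonged to no sample. Groups followed the sample labels.

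Counts were fitted with edgeR 4.0.16 (TMM, filterByExpr with a minimum of 10 and a total of 15, 15616 genes, group as the only term over 20 libraries, quasi-likelihood test, two-sided, Benjamini-Hochberg, threshold 0.05, common dispersion 0.147). Alternatives used DESeq2 1.42.0, limma 3.58.1 (voom with sample weights, or log2(FPKM + 1)), other scalings, no filter, the compared groups alone, a clock score and leaving out each mouse. In data simulated for Sirt2-/-/CE against CE over 15344 genes, 63% of 200 changed genes were recovered, 49% at a log2 change of 1 and 77% at 2, with 2.33% of calls false. Changes smaller than 1 were not simulated, while the neighbours differed by -0.18 to 0.50 in that comparison. Levels between genes used FPKM. Positions came from GENCODE M21 and start regions from RefSeq. BLAST+ 2.17.0 at 95% identity over 150 bases found matches in other genes for Nfkbib, Actn4 and Supt5, which held at most 0.406% of joint counts. Gene names followed a fixed rule: the 10 neighbours, Sirt2, window genes past the threshold, and the 3 genes most like Lrfn3. Clock genes and Nnt were named as members of the marker lists. Cd22 and Cyp2a4 were named as the first tested genes beyond the window, and window genes in the closing section were named after their values were seen. The neighbours, the partner and marker lists and the tests were chosen with earlier results of these data known.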

Additional observations from a re-analysis of the deposited data

Results flagged for a closer look

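Within groups of 5 mice, a value was singled out when its gap to the nearest other mouse exceeded 0.71 of the group's range. This picked 7 of 44 groups of values, and chance picks about 1 in 20. Of the 7, 6 came from Sirt2-/-/CE replicate 16: Nfkbib at 35.4 CPM with 17.3 next in the group, Sars2 at 13.6 with 8.54, Mrps12 at 58.7 with 31.5, Ech1 at 561 with 305, Eif3k at 71.5 with 43.7, and Sirt2 at 27.5 with 21.1. The remaining value was Nfkbib in Sirt2-/- replicate 14, at 27.8 CPM with 19.1 next. The 44 groups share mice and are not independent of each other.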

How the results depend on the processing

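No paired analysis was possible because the replicate numbers run from 1 to 20 and no number is shared between groups. Of the neighbours, 0 passed between Sirt2-/-/CE and CE mice, and between the knockout groups, under every alternative run. In CE against Control mice 1 of 10, Lrfn3, passed with DESeq2, with limma voom and without Control replicate 4 (range 0 to 1 when each mouse was left out). The drop of Sirt2 missed the threshold in the fit of CE and Sirt2-/-/CE mice alone (adjusted p = 0.0848, edgeR) and, in unexposed mice, with the clock score (-0.85, adjusted p = 0.159, edgeR). Of window genes, DESeq2 called 1 (Cyp2a22) between the cold-exposed genotypes and 2 (Cyp2g1, Zfp60) in unexposed mice, where library-size scaling called 1 (Zfp60), limma voom 6 (Adck4, Cyp2g1, Psmc4, Sertad3, Shkbp1, Zfp60) and leaving out each mouse 0 to 2, the 2 without Sirt2-/- replicate 13. Limma voom called 1 (Zfp60) over both treatments and 3 (Atp4a, Pgam1-ps2, Sertad3) in CE against Control mice. The causes of these were not tested.

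Library-size scaling moved the median of all genes to 0.11, 0.16 and 0.14 in the genotype comparisons (cold, unexposed, both), from 0.02. It moved Actn4 to 0.59 in unexposed mice and to 0.38 over both treatments. On log2(FPKM + 1), which understates changes of low genes, Lrfn3 fell from 2.03 to 1.22 in unexposed mice and from 1.78 to 0.96 in CE against Control mice. Hnrnpl, which is not a low gene, stood at -0.15 in place of -0.37 in unexposed mice. Its means were 24.9 FPKM in Control and 22.4 FPKM in Sirt2-/- mice, against 57.5 and 44.4 CPM. Over all genes, Sirt2-/- against Control gave 139 calls, 607 with DESeq2, 419 with library-size scaling, 906 with limma voom, 329 with FPKM, 35 unfiltered, 29 with these groups alone, 0 with the clock score and 5 to 375 without a mouse. Over both treatments 29 calls became 317, 112, 263 and 45 in the first 4 of these, 20 unfiltered, 2 with the clock score and 10 to 117 without a mouse. CE against Control gave 1, 188 with DESeq2, 540 with limma voom, 2 with the clock score, 0 with these groups alone and 0 to 68 without a mouse, 68 without Control replicate 4. Between the cold-exposed genotypes 2 calls became 31 with DESeq2, 1 with library-size scaling, 0 with these groups alone and 1 to 6 without a mouse, and between the knockout groups 0 became 7 with DESeq2.

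Calls on the neighbours in Sirt2-/- against Control mice and over both treatments are not given, since Lrfn3 is taken as chosen on the first, which the second contains.

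The following log2 differences, none past the threshold, changed sign. In Sirt2-/- against Control, leaving out each mouse gave Eif3k -0.05 to 0.14, and over both treatments Sars2 -0.03 to 0.12. In Sirt2-/-/CE against CE, with limma voom Nfkbib -0.11, Sars2 -0.12, Mrps12 -0.20. Leaving out each mouse there gave Nfkbib -0.18 to 0.22, Sars2 -0.18 to 0.11, Mrps12 -0.17 to 0.28, Eif3k -0.03 to 0.34, Paf1 -0.05 to 0.19. In CE against Control, with library-size scaling Eif3k -0.01, with FPKM Eif3k -0.0042, with DESeq2 Paf1 0.0031, with these groups alone Paf1 0.01, with the clock score Supt5 -0.02. Leaving out each mouse there gave Eif3k -0.10 to 0.11, Paf1 -0.10 to 0.05. In Sirt2-/-/CE against Sirt2-/-, with library-size scaling Nfkbib -0.07, Mrps12 -0.03, Ech1 -0.06, with limma voom Nfkbib -0.14, Mrps12 -0.17, Ech1 -0.15, Eif3k -0.03, with FPKM Nfkbib -0.08, Mrps12 -0.08, Hnrnpl -0.09, Ech1 -0.10. Leaving out each mouse there gave Nfkbib -0.27 to 0.19, Mrps12 -0.25 to 0.21, Hnrnpl -0.03 to 0.17, Ech1 -0.26 to 0.19, Eif3k -0.05 to 0.29, Paf1 -0.17 to 0.07, Lrfn3 -0.0017 to 0.49, Sirt2 -0.13 to 0.07.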

Other observations

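The tally of group means in CPM placed Control lowest for 6 of the 10 neighbours and CE lowest for 3. The highest mean fell in Sirt2-/-/CE mice for 5 of them, in Sirt2-/- mice for 4 and in Control mice for 1, Hnrnpl. Among the 5, Nfkbib, Mrps12, Ech1 and Eif3k had their highest mouse in Sirt2-/-/CE replicate 16. By mean FPKM, Nfkbib, Mrps12 and Ech1 were highest in Sirt2-/- mice. Nnt, which carries a deletion in the C57BL/6J substrain, was read in all 20 mice. It stood at 46.7 to 113 CPM in Control, 82.1 to 121 in CE, 96.0 to 143 in Sirt2-/- and 103 to 142 in Sirt2-/-/CE mice. The medians were 96.0, 90.6, 113 and 112 CPM in that order, and the ranges overlapped. Neuronal markers, listed because Lrfn3 is best known from neurons, summed over 5 genes to 13.5 to 21.2 CPM in Control mice, where Lrfn3 was lowest, to 4.94 to 14.8 CPM in CE, to 3.07 to 16.3 CPM in Sirt2-/- and to 6.18 to 20.7 CPM in Sirt2-/-/CE mice.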
